A study of Mus musculus with 4 samples.

Results

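The Frizzled and LRP genes encode the cell-surface receptors of the Wnt pathway, and 10 of them were followed here in mouse embryonic stem cells, Fzd1 to Fzd8 with the co-receptor genes Lrp5 and Lrp6. They were taken by symbol from a table of 46603 gene IDs, where each symbol has 1 row, and all 10 are among the 30237 genes with a count. The study measured polyadenylated RNA by RNA sequencing in 2 samples of Gsk3a-/-;Gsk3b-/- cells and 2 of wild-type cells, all grown in serum medium with LIF over a layer of irradiated mouse fibroblasts. The sample labels give embryonic day 16 as the age, whereas the design text gives another value. The labels describe neither the targeted alleles nor the number of clones.

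The deposited table compares a group B with a group A, and nothing in its header or in the labels says which genotype is which. Values are therefore given for group B over group A. The table holds group means, from which the whole reads of each library were recovered, and these libraries are called B1, B2, A1 and A2. This numbering is unrelated to the replicates named in the labels.

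Frizzled proteins are membrane receptors that cross the membrane several times and bind Wnt ligands through an extracellular cysteine-rich domain. LRP5 and LRP6 cross it once, and a Wnt ligand brings them together with a Frizzled. Dishevelled and Axin are then recruited, GSK-3 and casein kinase 1 phosphorylate repeated PPPSP motifs in the LRP tail, and beta-catenin escapes the degradation that GSK-3 otherwise starts. In stem cell cultures this pathway supports self-renewal and, when strongly active, primitive streak genes.

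Library totals ranged from 112655210 to 146326307 reads. Gsk3a, a targeted gene, had 1697 and 1347 normalized counts in B1 and B2, against 6353 and 7104 in A1 and A2. Gsk3b had 5051 and 5002 in B1 and B2, against 5438 and 6285 in A1 and A2. A normalized count is a read count divided by the size factor of its library. Of 8 embryonic stem cell markers, all were abundant in every library, with Pou5f1 at 105468 and 93404 in group B and 115577 and 125786 in group A. Summed feeder fibroblast markers differed within groups, at 147448 in B1 and 440933 in B2 against 306013 in A1 and 219583 in A2. Summed endoderm markers were 346560 in B1 and 171064 in B2, against 90769 in A1 and 73712 in A2. By the authors' test and by limma 0 of 14 feeder markers passed, and 0 had an unadjusted p under 0.05 in either. By the authors' test, which called 1.54% of all tested genes higher and 1.92% lower, 1 of 14 endoderm markers was higher in group B (Foxa1), and limma called 4 higher. An unadjusted p under 0.05 was found for 10 endoderm markers by the authors' test and 11 by limma, and 10 of the 13 whose mean was 10 or more had B1 and B2 above A1 and A2 (median log2 fold change 1.88). Of all 20465 genes whose mean was 10 or more, 3141 had such a p by the authors' test and 4235 by limma. Of 10 macrophage markers 2 were higher by the authors' test (Lyz2 and Ptprc) and 1 by limma, with an unadjusted p under 0.05 for 5 and 6 and a median of 1.43. B1 and B2 were above A1 and A2 for 7 of them and below for 2, Cd68 and Itgam. Their summed counts were 21155 in B1 and 28097 in B2, against 27264 in A1 and 28825 in A2. Ptprc rested on 2 and 12 reads in A1 and A2. Of 8 stem cell markers 1 was lower by each test (Utf1), with an unadjusted p under 0.05 for 3 and 6 and a median of -0.32. B1 and B2 were below A1 and A2 for 6 of these 8 and above for 0, against 26% below and 26.4% above of the 20465 genes. No protein-coding gene on chromosome X, Y or the mitochondrial genome has a count in the table (0 of 942, 183 and 13), while 18165 of 20409 autosomal ones do. The receptor genes are all autosomal.

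None of the 10 receptor genes passed the test. By the authors' deposited table, 0 of 10 were higher and 0 of 10 lower in group B at an adjusted p under 0.05, while 1.54% of all tested genes were higher and 1.92% lower. Those are 466 and 581 of 30237 genes. All of them were among the 20465 genes whose mean was 10 or more, as were the 10 receptor genes. The median log2 fold change of the receptor genes was -0.06, against 0.01 over the 20465 genes. The smallest adjusted p among them was 0.536, for Fzd3, and 0 members had an unadjusted p under 0.05 in the authors' deposited table. Limma on the recovered counts likewise called 0 higher and 0 lower, against 0.977% and 1.03% of all genes, and 1 member, Fzd3, had an unadjusted p under 0.05. Of the 20465 genes, 3141 had such a p by the authors' test and 4235 by limma. A p that misses the threshold does not show equal levels, so each gene is given with its interval.

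**Figure D1:**
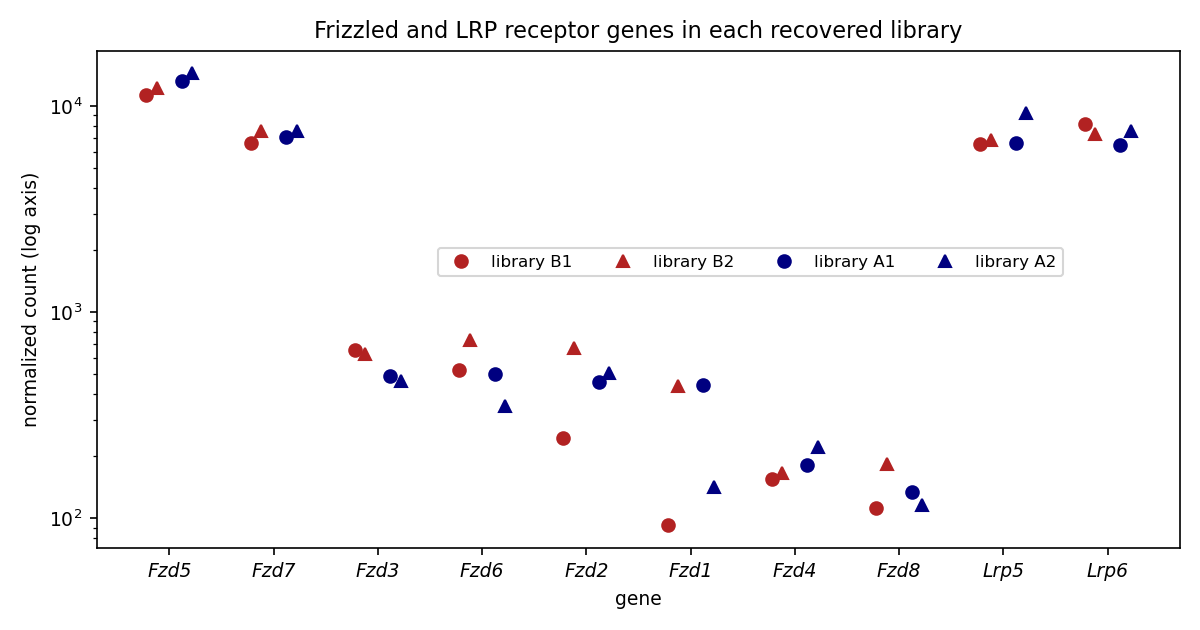
Normalized counts of the 10 receptor genes on a log axis, 1 point per recovered library, with B1 and B2 in red and A1 and A2 in blue. Fzd5, Fzd7, Lrp5 and Lrp6 form an upper group between 6476 and 14362, and the other 6 genes lie between 92.6 and 732.

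Fzd5 and Fzd7 were the most abundant Frizzled genes in both groups, and neither passed. Both can carry the beta-catenin signal, and FZD7 is the best-studied Wnt receptor of human embryonic stem cells. Fzd5 (ENSMUSG00000045005, mm10 chromosome 1, 64730558 to 64737751, minus strand) had 11307 and 12152 normalized counts in B1 and B2, against 13180 and 14362 in A1 and A2. Both B libraries were thus below both A libraries. The authors' deposited table gives a log2 fold change of -0.23 (adjusted p 0.909), and the 95% interval from limma ran from -0.48 to 0.01. Fzd7 (ENSMUSG00000041075, chromosome 1, 59482424 to 59486955, plus strand) had 6582 and 7576 in group B, against 7026 and 7542 in group A. The 2 groups overlapped. Its log2 fold change was -0.04 (adjusted p 1, authors' deposited table), with a limma interval of -0.33 to 0.25, or a fold of 0.793 to 1.19. The sign of this small value turned in limma without B1 (0.06) and without A2 (0.01).

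The promoters of these abundant genes are shown with that of Fzd1, the member whose libraries differed most within each group. RefSeq promoter sequences on GRCm38.p6 were matched for 4 of the 10 members, and each sequence below is the 250 bases before the start site, 5′ to 3′ on the gene's strand, with GC boxes (GGGCGG on either strand) in capitals. They lie at chr1:64737751-64738000 (minus) for Fzd5, chr1:59481897-59482146 (plus) for Fzd7 and chr5:4758217-4758466 (minus) for Fzd1. The RefSeq start sites need not match the gene positions given for these genes, which come from GENCODE M21. There the gene Fzd7 starts at 59482424, and Fzd1, on the minus strand, starts at 4758035.
Fzd5: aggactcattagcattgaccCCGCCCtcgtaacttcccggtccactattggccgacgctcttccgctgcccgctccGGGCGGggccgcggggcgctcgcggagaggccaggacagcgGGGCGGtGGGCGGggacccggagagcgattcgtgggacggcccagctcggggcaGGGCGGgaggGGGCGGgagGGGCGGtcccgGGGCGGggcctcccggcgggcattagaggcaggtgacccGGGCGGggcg
Fzd7: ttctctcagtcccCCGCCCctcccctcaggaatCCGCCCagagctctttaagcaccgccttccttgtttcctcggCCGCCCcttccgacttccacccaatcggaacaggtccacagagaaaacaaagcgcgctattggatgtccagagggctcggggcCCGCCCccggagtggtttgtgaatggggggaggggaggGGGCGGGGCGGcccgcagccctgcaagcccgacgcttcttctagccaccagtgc
Fzd1: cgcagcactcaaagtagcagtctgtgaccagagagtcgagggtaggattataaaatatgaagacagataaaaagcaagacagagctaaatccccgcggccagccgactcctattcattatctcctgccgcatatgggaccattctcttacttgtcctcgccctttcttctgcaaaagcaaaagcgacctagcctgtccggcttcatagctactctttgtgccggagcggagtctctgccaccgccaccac

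Fzd5 has 9 GC boxes and 76.4% G and C bases in this window, Fzd7 has 6 and 65.2%, and Fzd1 has 0 and 51.2%. A GC box is the letter pattern that Sp and Klf factors can bind, and 32.7% of all 32851 promoter windows of this length hold at least 1. Of the 4 matched windows, 3 do. Among them is that of Fzd4, whose mean level per kilobase of merged exon was 27.0, against 66.5 for Fzd1. Any relation of GC boxes to level was not tested. The core letters of the TCF/LEF site, CTTTGAT or CTTTGAA on either strand, were in none of the 4 matched windows. They occur in 3.21% and 4.46% of all windows. A match describes letters only, and no match says nothing about binding elsewhere.

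Lrp5 and Lrp6, the co-receptors whose tails GSK-3 phosphorylates, did not pass either. Lrp5, known for its role in bone mass, and Lrp6, needed for mouse embryonic patterning, are the co-receptors of the core Wnt receptor complex. Lrp6 (ENSMUSG00000030201, chromosome 6, 134446476 to 134566965, minus strand) had 8132 and 7321 in B1 and B2, against 6476 and 7540 in A1 and A2. Its log2 fold change was 0.14 in the authors' deposited table (adjusted p 1), with a limma interval of -0.16 to 0.45. A2 lay between the B libraries, so the groups overlapped. Lrp5 (ENSMUSG00000024913, chromosome 19, 3584828 to 3686564, minus strand) had 6502 and 6849 in group B, against 6574 and 9246 in group A. Here A2 was high and the other libraries were close together. The log2 fold change of Lrp5 was -0.24 (adjusted p 1, authors' deposited table), and its limma interval was -0.66 to 0.21. Without A2 the limma value was 0.02. Per kilobase of merged exon, the ratio of Lrp5 to Lrp6 was 1.12 in B1 and 1.31 in B2, against 1.43 in A1 and 1.72 in A2. Per kilobase of coding length, an alternative chosen after seeing the data, it was 0.799 in B1 and 0.935 in B2, against 1.01 in A1 and 1.23 in A2. Which of the pair was higher in B1 and B2 thus depends on the length used. The ratios of the groups did not overlap. A change of length scales this ratio by the same factor in every library, so the second length is no further check of that. An exact permutation test of 2 libraries against 2 cannot go below a two-sided p of 0.333, so this ratio and the shares further on are given as a description, with no test.

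Fzd3 and Fzd6 had the largest positive log2 fold changes of the members. In mice these receptors act mainly in planar cell polarity, the alignment of cells within a sheet, and in axon guidance. Fzd3 (ENSMUSG00000007989, chromosome 14, 65192449 to 65262463, minus strand) had 657 and 629 in B1 and B2, against 488 and 466 in A1 and A2. Each B library exceeded each A library, and the pairs were tight. The log2 fold change was 0.43 in the authors' deposited table (adjusted p 0.536), and limma gave 0.43 (SE 0.17, adjusted p 0.241) with a 95% interval from 0.0012 to 0.86. Fzd6 (ENSMUSG00000022297, chromosome 15, 39006034 to 39038188, plus strand) had 522 and 732 in group B, against 501 and 352 in group A. B1 and A1 were nearly level, so the separation rests on B2 and A2. Its log2 fold change was 0.56 (adjusted p 0.822, authors' deposited table), with a limma interval of -0.11 to 1.23. In limma it was 0.80 without B1, 0.31 without B2, 0.81 without A1 and 0.30 without A2. An antisense RNA, Gm26704, overlaps exons of Fzd6, as Gm38058 does for Fzd5, and whether reads were counted by strand is not stated, so reads of the pairs cannot be told apart. The counts of both RNAs were at most 14.2 in any library.

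Fzd4 and Fzd8 had the lowest mean levels per kilobase of the members. Fzd4 serves Norrin and Wnt signalling in retinal vessels, and Fzd8 is known for tight Wnt binding. Fzd4 (ENSMUSG00000049791, chromosome 7, 89404355 to 89413134, plus strand) had 156 and 167 in B1 and B2, against 182 and 221 in A1 and A2. Both B libraries were below both A libraries. The log2 fold change of Fzd4 was -0.32 (adjusted p 1, authors' deposited table), with a limma interval of -0.92 to 0.29. Fzd8 (ENSMUSG00000036904, chromosome 18, 9212163 to 9218136, plus strand) had 113 and 183 in group B, against 134 and 116 in group A. The highest and the lowest library were both of group B. Fzd8 rested on 123 and 155 reads in B1 and B2, and the exact Poisson 95% intervals of its normalized counts, 93.7 to 135 in B1 and 156 to 214 in B2, did not overlap. Those intervals cover counting error only. The log2 fold change of Fzd8 was 0.24 in the authors' deposited table (adjusted p 1) with a limma interval of -0.60 to 1.01, and in limma it was -0.14 without B2.

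Across the 10 genes, Fzd3 and Fzd6 had B1 and B2 above A1 and A2, and Fzd4 and Fzd5 had them below, which makes 2 genes each way. Of all 20465 genes whose mean was 10 or more, 26.4% were separated upwards and 26% downwards.

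**Figure D2:**
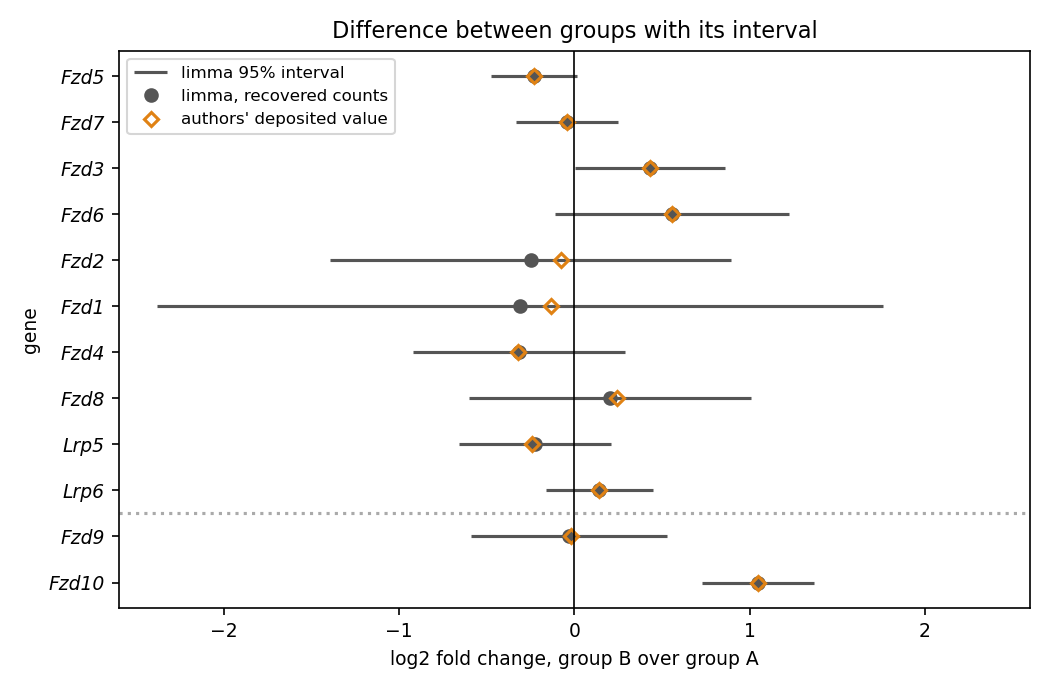
Log2 fold change of group B over group A for the 10 receptor genes and, under the dotted line, Fzd9 and Fzd10, with the authors' deposited value as a diamond and the limma value with its 95% interval as a dot and line. Intervals are narrow for Fzd5 and Fzd7 and widest for Fzd1, and that of Fzd10 runs from 0.73 to 1.37.

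Fzd1 and Fzd2, the closest relatives of Fzd7, differed more between B1 and B2 than between the group means. Fzd1 (ENSMUSG00000044674, chromosome 5, 4753839 to 4758035, minus strand) had 92.6 and 440 in B1 and B2, against 442 and 142 in A1 and A2. B2 and A1 were high and B1 and A2 low, so B2 was 4.75 times B1 and A1 was 3.11 times A2. Fzd2 (ENSMUSG00000050288, chromosome 11, 102604396 to 102608058, plus strand) had 245 and 670 in group B, against 461 and 504 in group A. Here B2 was 2.74 times B1, while the A libraries were close. The authors' deposited table gives log2 fold changes of -0.13 for Fzd1 and -0.08 for Fzd2 (adjusted p 1 for each). In limma the value of Fzd1 was 0.81 without B1, -1.43 without B2, 0.50 without A1 and -1.13 without A2. That of Fzd2 was 0.48 without B1 and -0.97 without B2. The limma intervals, -2.39 to 1.76 for Fzd1 and -1.40 to 0.90 for Fzd2, were the widest of the members.

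Feeder fibroblast markers moved with the same libraries. All 14 were higher in B2 than in B1 and in A1 than in A2, with median log2 ratios of 2.49 and 1.03. Fzd1 had log2 ratios of 2.25 and 1.63, and Fzd2 had 1.45 and -0.13. Across genes whose mean was 50 or more, the standard deviation of these ratios was 0.52 between the B libraries and 0.34 between the A libraries. In bulk RNA, more cells of a type and more RNA per cell cannot be told apart, and the part of the feeders in the Fzd1 and Fzd2 values was not tested. Fzd8 and Fzd6 were also higher in B2 than in B1, with log2 ratios of 0.70 and 0.49, and in A1 than in A2, with 0.22 and 0.51. For the other 6 members the log2 ratio ran from -0.15 to 0.20 for B2 over B1 and from -0.49 to 0.07 for A1 over A2.

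**Figure D3:**
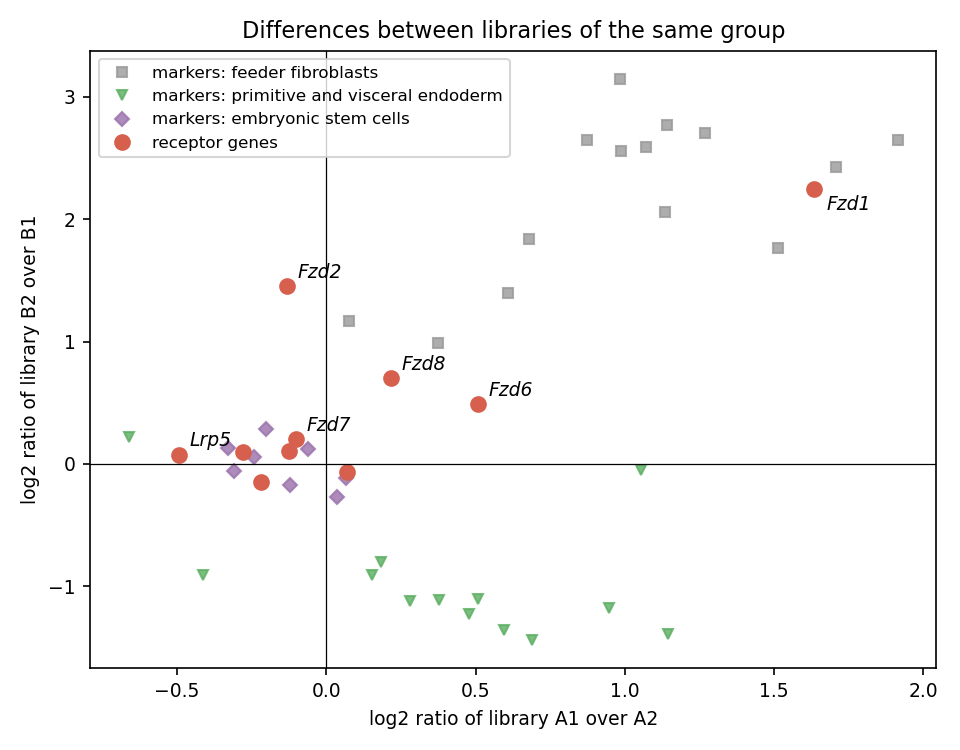
Log2 ratio of A1 over A2 against that of B2 over B1, 1 point per gene, for the receptor genes and for markers of feeder fibroblasts, endoderm and embryonic stem cells. Fzd1 lies among the feeder markers at 1.63 and 2.25, while Fzd7 lies among the stem cell markers. Lrp5, at -0.49 for A1 over A2, lies beyond the lowest stem cell marker on that axis (Tdgf1, -0.33).

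Levels of different genes were compared per kilobase of merged exon. The order by mean over the 4 libraries was Fzd5 (1844), Fzd7 (1585), Lrp5 (749), Lrp6 (539), Fzd2 (128), Fzd6 (109), Fzd1 (66.5), Fzd3 (43.7), Fzd4 (27.0) and Fzd8 (22.9). The ranges over libraries of Fzd5 and Fzd7 overlapped, as did those of neighbours from Fzd2 to Fzd3 and those of Fzd4 and Fzd8. By this measure the ranges of the other neighbours did not overlap. The order depends in part on the length used. Per kilobase of coding length it was Fzd5 (7265), Fzd7 (4185), Lrp6 (1522), Lrp5 (1506), Fzd3 (280), Fzd2 (275), Fzd6 (248), Fzd1 (145), Fzd4 (113) and Fzd8 (66.4). There the range of Fzd5 lay above that of Fzd7, the ranges of Lrp6 and Lrp5 overlapped, and Fzd3 stood above Fzd2, Fzd6 and Fzd1 in mean level. Fzd5 and Fzd7 came first and Fzd4 and Fzd8 last with both lengths.

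Fzd10 stands outside the 10 genes and was called higher by the authors' test, unlike the other 9 Frizzled genes. It had 3732 and 3373 normalized counts in B1 and B2, against 1663 and 1770 in A1 and A2 (log2 fold change 1.05 and adjusted p 6.94e-06 in the authors' deposited table). Limma gave 1.05 with an adjusted p of 0.0312. The limma adjusted p was 0.0299 without B1 and 0.0165 without B2, and 0.197 without A1 and 0.312 without A2 at nearly the same fold. Without A1 or A2, limma called 0 of 20465 genes in all, with 2420 and 2034 at an unadjusted p under 0.05. Per kilobase, Fzd10 held 24.4% and 20.2% of the summed level of the 10 Frizzled genes in B1 and B2, against 11.2% and 11.4% in A1 and A2. With coding length the mean share of Fzd10 was 14.4% in group B and 6.86% in group A. By merged exon length, Fzd5 held 34.8% and 34.2% in group B, against 41.9% and 43.6% in group A. Fzd7 held 30.9% and 32.5% in group B, against 34.1% and 34.9% in group A. Shares add to a whole, so they do not vary independently. The level of Fzd5 per kilobase was itself 1635 and 1757 in B1 and B2, against 1906 and 2077 in A1 and A2. That of Fzd7 was 1452 and 1672 in B1 and B2, against 1550 and 1664 in A1 and A2. The summed level itself overlapped between groups, at 4697 and 5141 per kilobase in B1 and B2 against 4548 and 4767 in A1 and A2. Fzd9 had 392 and 298 in group B, against 360 and 339 in group A, and did not pass (adjusted p 1, authors' deposited table).

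**Figure D4:**
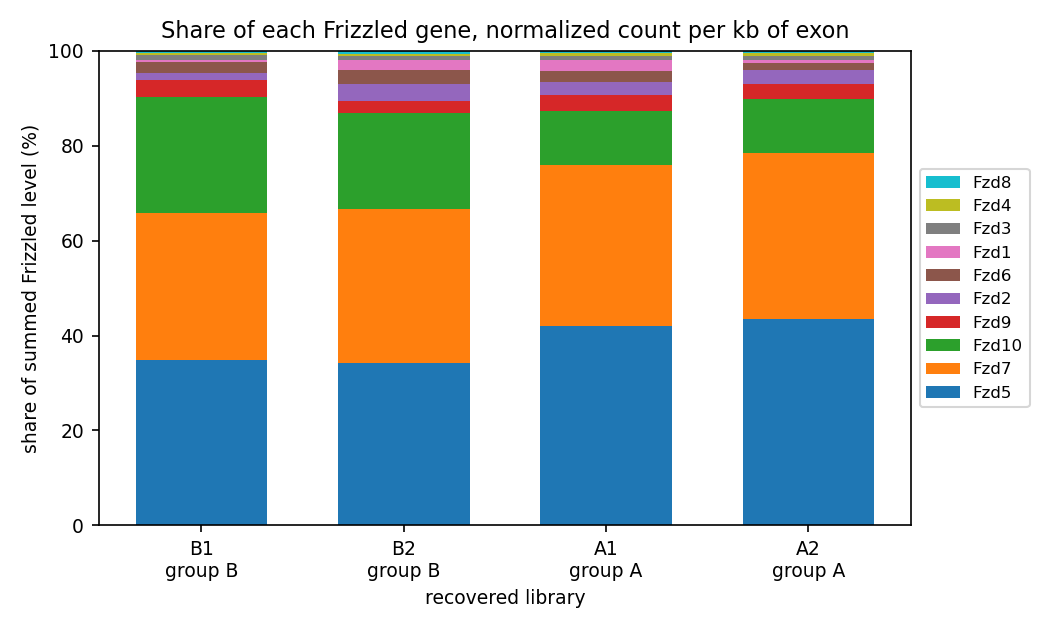
Share in percent of the summed Frizzled level, as normalized count per kilobase of exon, held by each of the 10 Frizzled genes in each recovered library. Fzd5 and Fzd7 together hold 65.7% and 66.7% in the B libraries and 76.0% and 78.5% in the A libraries, and Fzd10 holds most of the rest in group B.

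Genes that act on or beside the receptors were counted by the same authors' test in 6 lists of 84 genes, of which 81 had a count, and 6 were higher and 3 lower, against 1.54% and 1.92% of all tested genes. Among 9 measured other Wnt receptors and co-receptors 1 was higher, Fzd10, and 0 lower (median log2 fold change 0.12), and Gpc3 and Gpc4 are listed at 0. A listed 0, here or in the lists that follow, does not show that a gene is silent. No protein-coding gene of chromosome X has a count. Of 19 secreted and membrane inhibitors 2 were higher and 2 lower (median -0.17 for the 15 whose mean was 10 or more). Dkk1, which binds LRP5 and LRP6, had 1894 and 1040 in B1 and B2, against 334 and 191 in A1 and A2 (adjusted p 0.0371, authors' deposited table). Its B1 value was the highest, as were the summed endoderm markers in B1, and their part in it was not tested. Wif1, which binds Wnt ligands, had 92.6 and 81.6 in group B, against 24.0 and 7.91 in group A (adjusted p 0.00122, authors' deposited table). The values of Wif1 in A1 and A2 rest on 26 and 8 reads.

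The lower inhibitors were Sfrp5 and Shisa3. Sfrp5, a secreted protein with a Frizzled-like domain, had 65.1 and 42.6 in B1 and B2, against 194 and 241 in A1 and A2 (adjusted p 1.61e-05, authors' deposited table). Shisa3, of a family that in Xenopus holds Frizzled proteins inside the cell, had 40.3 and 39.0 in group B, against 164 and 129 in group A (adjusted p 0.000822, authors' deposited table). Of these 4 inhibitors, Dkk1 and Sfrp5 also passed in limma (adjusted p 0.0453 and 0.0497). Shisa3 and Wif1 did not (limma adjusted p 0.0503 and 0.0808), so Sfrp5 and Shisa3 lay on either side of the threshold by a narrow margin.

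In the receptor turnover list 1 of 9 genes was higher, Rnf43, a ubiquitin ligase that removes Frizzled proteins from the surface, and 0 were lower (median 0.28). Rnf43 had 286 and 344 in B1 and B2, against 94.0 and 63.3 in A1 and A2 (adjusted p 2.39e-07, authors' deposited table). Its relative Znrf3 had 3586 and 2826 in B1 and B2, against 2261 and 1865 in A1 and A2, and did not pass (adjusted p 0.119, authors' deposited table). Of 15 measured genes of receptor-proximal signalling 1 was higher and 0 lower (median 0.19), and Amer1 is listed at 0. The one was Axin2, which had 11002 and 10714 in B1 and B2, against 2251 and 2436 in A1 and A2 (adjusted p 2.34e-27 in the authors' deposited table). It is a feedback inhibitor that the pathway itself induces. Of 19 Wnt ligand genes 1 was higher, Wnt8a, and 1 lower, Wnt7b (median -0.11 for the 16 whose mean was 10 or more). Wnt8a had 130 and 180 in group B, against 36.8 and 49.4 in group A (adjusted p 0.000843, authors' deposited table). Wnt7b had 171 and 197 in group B, against 373 and 391 in group A (adjusted p 0.00681 there). Neither ligand passed in limma, whereas Fzd10, Rnf43 and Axin2 did. Of 11 other lipoprotein receptor genes 0 passed in either direction (median -0.28), and Lrp1, an abundant one, had a log2 fold change of -0.50 (adjusted p 1, authors' deposited table). Limma called 0 of these 11 as well. An unadjusted p under 0.05 was found for 1 of them by the authors' test and 3 by limma, against 3141 and 4235 of 20465 genes.

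By Euclidean distance between centred log2 values over the 4 libraries, among 16543 genes whose mean was 50 or more, the genes named for likeness to Fzd5 were Wdr70 and Sgms1 (0.02 and 0.03). Those most like Lrp6 were Zfp606, Sh2b1 and Zkscan16 (0.02 each), and those most like Lrp5 were Gm26836, Sh2d5 and Ina (0.03 to 0.05). Over so few libraries such distances are small for many genes and only describe them.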

How the data were processed

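The authors aligned reads with STAR to mm10 and tested genes with DESeq, per the submitters' processing notes, which name no versions; libraries were stranded TruSeq, per the labels' protocols. The read counter, strand setting and annotation are not stated in those sources. The deposited table holds, per the file headers, group means of normalized counts (read counts over size factors), the ratio (fold change) of the means with its log2, and p-values before and after adjustment. Its 46608 rows cover 46603 gene IDs.

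The authors' test was the main one. Each group mean is a sum of whole reads of 2 libraries times fixed steps, and whole reads came out for 100% of genes (tolerance 1e-06). These were tested as an alternative with limma 3.58.1 in R 4.3.3 (mean-variance trend, log2 of normalized count plus 1, mean of at least 10, two-sided, Benjamini-Hochberg); fold changes on this scale are understated for low genes. The procedures were tested on simulated data. Exon lengths and positions came from GENCODE M21 (mm10), motif searches from RefSeq promoters.

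The members, gene lists and marker lists were chosen with earlier results of these data known. Named were all members and, per list, up to 5 genes past the threshold or else the 2 most abundant; Znrf3, Fzd9, Gsk3a, Gsk3b and Pou5f1 were added after their values were seen. Some genes that the rules name are not reported here.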

Additional observations from a re-analysis of the deposited data

How the results depend on the processing

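Under 9 limma settings, 0 of 90 values of the receptor genes passed the threshold, with a smallest adjusted p of 0.0711 (limma), and 83 kept the direction of the authors' test. Of these values, 20 came from the 2 settings that leave out A1 or A2, in which limma called 0 of 20465 genes (2420 and 2034 at an unadjusted p under 0.05), so the count of 0 rests on the 70 values of the other 7 settings. The 7 values with the opposite direction came from leaving out 1 library; over these settings the log2 fold change ran from -1.43 to 0.81 for Fzd1 (0.50 without A1), -0.97 to 0.48 for Fzd2, -0.15 to 0.058 for Fzd7 (0.0072 without A2), -0.14 to 0.55 for Fzd8 and -0.47 to 0.022 for Lrp5. Among the other Wnt pathway lists, the number of lower genes was 1 in limma and 0 in limma without a filter on the mean, against 3 in the authors' test, and with 1 library left out the number ranged from 0 to 5 lower and from 0 to 5 higher, where the 0 is from the settings without A1 or A2; the cause was not tested. With an A library left out the spread rests on the B libraries. The standard deviation of the log2 ratios was 0.52 between the B libraries and 0.34 between the A libraries. Its part in these counts was not tested. With coding length in place of merged exon length, Fzd5 held 47.0% of the summed Frizzled level in group B and 54.7% in group A, Fzd7 held 29.0% and 29.6%, and Fzd10 held 14.4% and 6.86%. The mean ratio of Lrp5 to Lrp6 was then 0.867 in group B and 1.12 in group A, against 1.22 and 1.57 with merged exon length, a comparison chosen after seeing the data. No paired analysis was possible because the recovered libraries carry no replicate numbers. Counting intervals were computed for Fzd8 alone, and those of B1 and B2 did not overlap on the normalized scale.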
